A study of Mus musculus with 24 samples.

Results

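The desmosome genes described here are 9 of the 23283 genes counted in the series: the cadherins Dsg2, Dsg3, Dsc2 and Dsc3, the armadillo proteins Jup, Pkp1 and Pkp3, the plakin Dsp, and Perp. They were chosen by name, all 9 were found by symbol, and each had at least 1 count in some library. Their RNA was followed across 24 mouse libraries in 6 groups. Factor-independent induced pluripotent stem cells (iPS, 4 libraries), sorted for an Oct4:GFP reporter, were grown in embryonic stem cell medium with the cytokine LIF and without doxycycline. Fast MEF and slow MEF (4 libraries each) were mouse embryonic fibroblasts kept for 6 days in that medium with 2 µg/ml doxycycline, which induced the Yamanaka reprogramming factors, and divided by sorting on CFSE, a dye that thins out with each division, 48 hours after dyeing. Fast GMP (5 libraries) and slow GMP (3 libraries) were granulocyte monocyte progenitors of the blood, grown in serum-free medium with cytokines and sorted in the same way after 24 hours. Bulk MEF (4 libraries) were untreated fibroblasts in serum medium. Each library came from the cytosolic RNA of 1000 cells. The labels give no strain, age or sex, do not say how the factors were carried into the cells, and do not say whether the libraries of a group came from separate animals or cultures, so the p-values measure the spread between libraries, which may be technical.

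Desmosomes are the button-like junctions that fasten epithelial cells, and heart muscle cells, to one another. Desmogleins (Dsg) and desmocollins (Dsc) are the cadherins that meet between the cells. Inside the cell their tails bind plakoglobin (Jup) and the plakophilins (Pkp), which bind desmoplakin (Dsp), and desmoplakin holds the keratin filaments. Fibroblasts and blood progenitors have no such junctions as a rule, while embryonic epithelia and the epidermis build them with different sets of cadherins and plakophilins.

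The libraries held 2098846 to 18648132 counts, and the 8 GMP libraries, with 2098846 to 4411526, were the shallowest. Rn45s and Lars2 together made up 19.9 to 48.9% of the counts in GMP libraries and 3.05 to 11.7% in the others. Levels below are depth-scaled counts, as CPM, with one set of scaling factors over all 24 libraries, and folds come from separate fits to the groups compared. Pluripotency and myeloid markers followed the labels, while fibroblast markers were lower in fast MEF than in slow and bulk MEF. Summed macrophage markers averaged 222 ± 53.4 CPM in bulk MEF, 51.3 ± 43.5 CPM in slow MEF and 15.9 ± 10.6 CPM in fast MEF (SD). Their averages were 480 ± 177 CPM in fast GMP, 265 ± 102 CPM in slow GMP and 34.9 ± 21.8 CPM in iPS. Summed pluripotency markers averaged 2239 ± 346 CPM in iPS (SD, n = 4), against at most 11.5 CPM on average in each other group. Summed myeloid markers averaged 17155 ± 9499 CPM in fast GMP (n = 5) and 11926 ± 3693 CPM in slow GMP (n = 3), and at most 9.87 CPM elsewhere. Summed fibroblast markers averaged 202 ± 123 CPM in iPS, 2600 ± 1427 CPM in fast MEF, 60995 ± 16646 CPM in slow MEF and 29041 ± 8531 CPM in bulk MEF (SD, n = 4 each). Fast GMP replicate 1 stood apart, with at least 1 read in 18402 genes, where no other GMP library exceeded 14168. These are RNA pools of many cells, so fewer cells of a type and less RNA per cell cannot be told apart.

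Promoter sequence was at hand for 2 of the 9 genes, the plakin Dsp and the armadillo protein Jup, which join the junction's inner layers. The sequences are from RefSeq on build GRCm38.p6, 250 bases before the annotated start and 30 bases from it, 5′ to 3′ on the strand of the gene. Capitals mark matches, on either strand, of 4 motifs that were searched: the E-box CAGGTG read by Snail and Zeb repressors, the Grainyhead-like motif AACNGGTT, the Klf motif CCNCACCC and the p53 half-site.
Dsp, chr13:38151044-38151323, plus strand: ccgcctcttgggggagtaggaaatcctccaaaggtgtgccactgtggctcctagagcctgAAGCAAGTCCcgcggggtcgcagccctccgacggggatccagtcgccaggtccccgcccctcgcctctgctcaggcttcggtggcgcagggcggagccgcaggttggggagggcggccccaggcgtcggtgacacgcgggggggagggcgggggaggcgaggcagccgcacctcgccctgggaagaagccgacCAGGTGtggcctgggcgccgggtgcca
Jup, chr11:100397761-100398040, minus strand: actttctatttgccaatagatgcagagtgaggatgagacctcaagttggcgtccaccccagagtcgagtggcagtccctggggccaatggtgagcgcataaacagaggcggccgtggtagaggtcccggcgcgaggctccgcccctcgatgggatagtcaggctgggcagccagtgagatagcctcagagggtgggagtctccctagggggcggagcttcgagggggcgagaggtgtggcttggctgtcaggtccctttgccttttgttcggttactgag
The Dsp window was 72.9% G and C and held 1 E-box, whose first base was base 4 counted from the start, and 1 p53 half-site at base -190. The Jup window was 60.7% G and C and held none of the 4 motifs. Among 32851 mouse promoters cut to the same 280 bases, 19.1% held the E-box, 1.95% the Grainyhead-like motif, 15.9% the Klf motif and 7.84% the p53 half-site. A match describes the letters of the window and not a bound site.

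Fast cycling reprogramming MEF held more RNA of most of the 9 genes than slow cycling MEF that had spent the same 6 days with the factors. Of the 9 genes, 7 rose in fast MEF, among them desmoplakin, plakophilin 1, plakoglobin and Perp and the cadherins Dsg2, Dsg3 and Dsc2. Pkp3 did not pass the test, and Dsc3 had too few counts to be tested. By edgeR's quasi-likelihood test with Benjamini-Hochberg adjustment over all genes, 31.7% of 11742 genes tested were called, 14.4% as higher and 17.3% as lower in fast MEF. Libraries of fast and slow MEF did not overlap for 35.6% of all genes tested. Dsc2, Dsg2, Dsg3 and Pkp3 passed the filter on low counts through fast MEF alone, so the count of members is a description and not support for a direction.

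**Figure D1:**
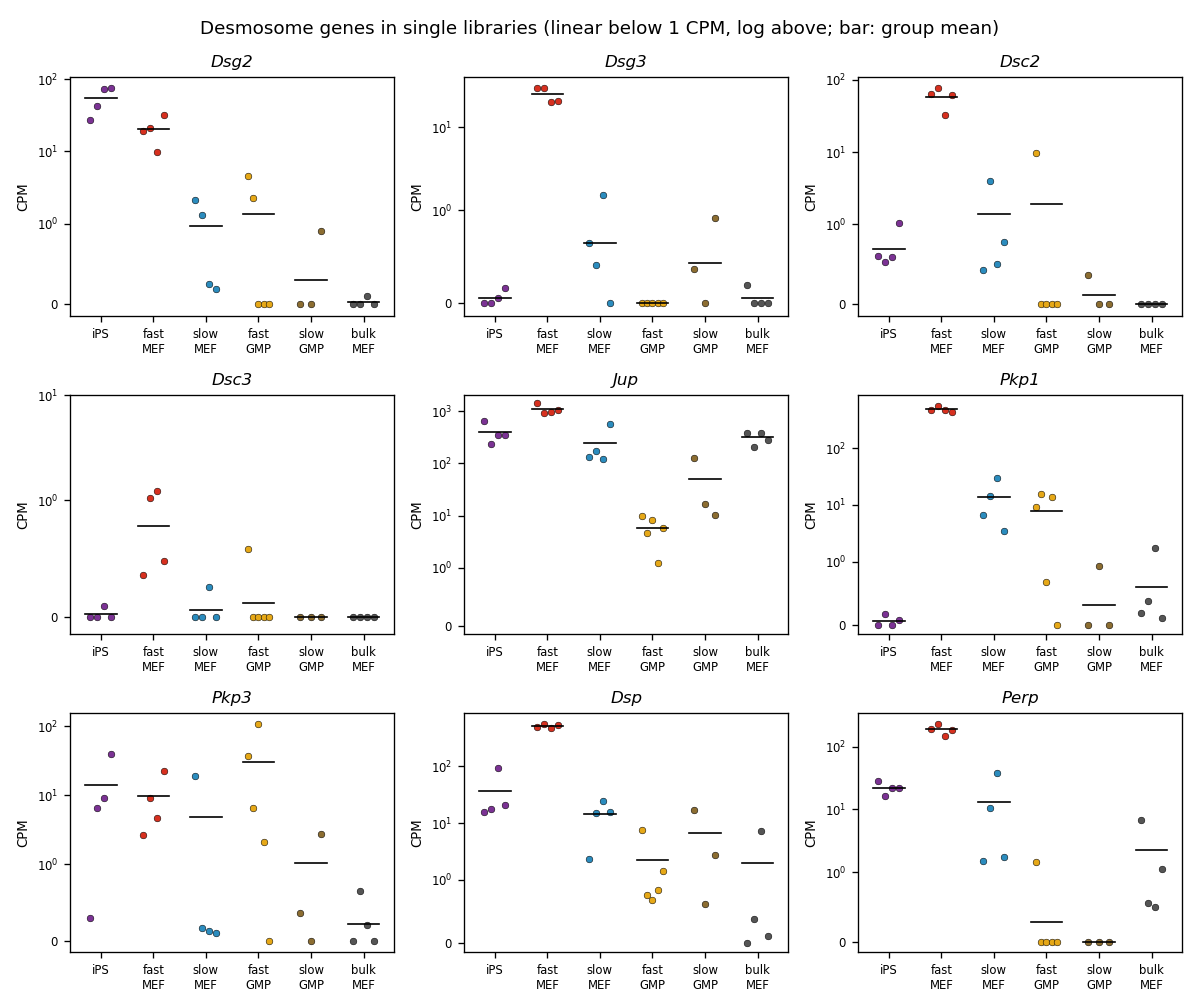
Each point is 1 library and each bar a group mean, in CPM on an axis that is linear below 1 CPM and logarithmic above, for the 9 desmosome genes in iPS, fast MEF, slow MEF, fast GMP, slow GMP and bulk MEF. The 4 fast MEF libraries lie above all other libraries for Dsp, Pkp1, Perp, Jup, Dsg3 and Dsc2, while iPS averaged 54.5 CPM for Dsg2, above the 20.5 CPM of fast MEF.

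Among the desmogleins, Dsg2, the form found in simple epithelia and heart, had 19.2, 20.9, 9.72 and 32.0 CPM in fast MEF, against 2.14, 1.31, 0.253 and 0.196 CPM in slow MEF. Every fast library was above every slow one, and the log2 fold change was 4.23 ± 0.82 (SE, adjusted p = 0.0033). Dsg3, the desmoglein of the basal epidermis and the target of pemphigus vulgaris antibodies, had 29.8, 29.7, 20.3 and 20.9 CPM in fast MEF, against 0.642, 0.408, 1.52 and 0 CPM in slow MEF. The groups were again apart, with a log2 fold change of 5.18 ± 0.88 (adjusted p = 0.00171). Slow MEF held 40 counts of Dsg2 and 23 of Dsg3 over 4 libraries, so the slow levels rest on few reads.

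The desmocollin Dsc2 had 63.6, 77.4, 32.5 and 61.5 CPM in fast MEF, against 0.428, 3.92, 0.505 and 0.784 CPM in slow MEF. All fast libraries were higher than all slow ones, by 5.20 ± 0.76 on the log2 scale (adjusted p = 0.000722). The slow group's highest value was 1 library, and without slow MEF replicate 2 the log2 fold change was 6.51. Dsc3, its neighbour and the desmocollin of basal keratinocytes, had 0.363, 1.06, 1.22 and 0.480 CPM in fast MEF, which is 29 counts in all, against 0, 0, 0.253 and 0 CPM in slow MEF, which is 2 counts. The libraries did not overlap, and the ratio of the summed levels was 14.2 with a 95% interval of 3.59 to 123 that covers counting error only. Thus 1 of the 2 desmocollins was abundant in fast MEF and the other was near the limit of detection.

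Of the armadillo proteins, plakoglobin (Jup), which also serves adherens junctions, had 1430, 935, 974 and 1044 CPM in fast MEF, against 133, 175, 119 and 565 CPM in slow MEF. All 4 fast libraries were higher, with slow MEF replicate 4 much above the other slow libraries. The log2 fold change was 2.04 ± 0.47 (adjusted p = 0.00772), and 2.81 without that library. Plakophilin 1 (Pkp1), which in skin recruits desmoplakin to the junction, had 460, 545, 461 and 438 CPM in fast MEF, against 6.63, 14.5, 30.1 and 3.53 CPM in slow MEF. The slow libraries were all far below the lowest fast one, and the log2 fold change was 4.99 ± 0.62 (adjusted p = 0.000267). Plakophilin 3 (Pkp3), the form with the widest use among epithelia, had 2.63, 9.25, 4.69 and 22.9 CPM in fast MEF, against 19.4, 0.163, 0.126 and 0.0980 CPM in slow MEF. Here 1 slow library lay inside the fast range. The log2 fold change was 0.86 ± 1.46 (adjusted p = 0.69), and 5.98 (adjusted p = 0.00384) without slow MEF replicate 1, so that library decided the call.

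Desmoplakin (Dsp), the link to keratin, had 489, 553, 464 and 528 CPM in fast MEF, against 2.35, 15.1, 24.4 and 15.7 CPM in slow MEF. The fast libraries lay within a narrow band, far above the slow ones, and the log2 fold change was 5.02 ± 0.58 (adjusted p = 0.000202). Perp, a membrane protein of the tetraspan kind that desmosomes of stratified epithelia need and that p53 and p63 switch on, had 193, 228, 148 and 187 CPM in fast MEF, against 1.50, 10.4, 38.0 and 1.76 CPM in slow MEF. The groups did not overlap, with a log2 fold change of 3.74 ± 0.91 (adjusted p = 0.0106). Without slow MEF replicate 3, the highest slow library for Perp, Pkp1 and Dsg3, these log2 fold changes were 5.22 for Perp, 5.72 for Pkp1 and 6.00 for Dsg3. In Dsg2 the value without slow MEF replicate 1 was 4.91.

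**Figure D2:**
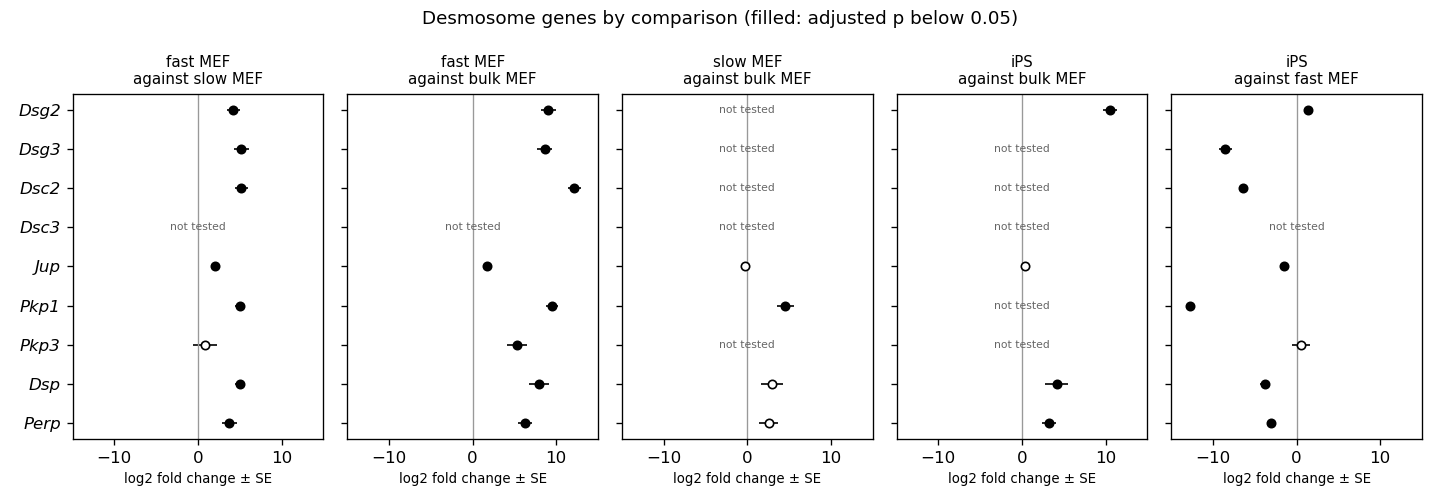
Points are log2 fold changes with SE bars from edgeR for each desmosome gene, 1 panel per comparison, filled where the adjusted p was below 0.05. The point for Dsc2 in fast MEF against bulk MEF depends on the prior count added by the fit, since bulk MEF had no Dsc2 count. Fast MEF against bulk MEF shows 8 filled points to the right of 0, and iPS against fast MEF shows 6 to the left and 1, Dsg2, to the right.

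Set against untreated bulk MEF, 8 desmosome genes were called higher in the fast cycling cells, and bulk MEF held almost none of this RNA except that of plakoglobin. Jup alone of the 8 had enough counts in bulk MEF to pass the filter on low counts, and the other 7 passed it through fast MEF, so their direction was largely set by the filter and their number is a description. In this comparison 34.9% of 11335 genes were called, 16.5% as higher. Libraries of fast and bulk MEF did not overlap for any of the 9 genes, nor for 37.3% of all genes tested. Bulk MEF libraries are shared with the slow MEF and iPS comparisons that follow, and fast MEF libraries with others, so these comparisons are not independent.

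Dsc2 had no count in the 4 bulk MEF libraries, and against a floor of 3 counts over that group fast MEF was at least 823-fold higher. Dsc3 had none either, which makes fast MEF at least 9.42-fold higher on its 29 counts. Dsg2 had 906 counts in fast MEF and 1 in bulk MEF, a ratio of 882 with a counting interval of 158 to 34892. Dsg3 had 1043 counts in fast MEF and 2 in bulk MEF, a ratio of 508 with an interval of 140 to 4200. All 4 cadherins were thus at or next to zero in untreated fibroblasts.

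Pkp1 had 0.196, 0.374, 1.72 and 0.113 CPM in bulk MEF, and the log2 fold change of fast MEF over it was 9.53 ± 0.71 (adjusted p = 6.77e-06). Dsp had 0, 0.374, 7.30 and 0.113 CPM in bulk MEF and a log2 fold change of 7.94 ± 1.25 (adjusted p = 0.000817). In both genes bulk MEF replicate 3 was the highest of its group. Without it the log2 fold changes were 10.88 for Pkp1, 11.44 for Dsp and 10.66 for Dsg2. Perp had 6.86, 0.561, 0.507 and 1.13 CPM in bulk MEF and a log2 fold change of 6.32 ± 0.83 (adjusted p = 0.000273), or 7.95 without bulk MEF replicate 1. That library also held both Dsg3 counts, and without it the fitted Dsg3 value was 10.96.

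Pkp3, at 0, 0.655, 0.203 and 0 CPM in bulk MEF, was higher in fast MEF by 5.35 ± 1.20 on the log2 scale (adjusted p = 0.00599), by 6.84 without bulk MEF replicate 2 and by 4.54 without fast MEF replicate 4. Jup was the tested member with the smallest difference. It had 379, 206, 392 and 287 CPM in bulk MEF, below all fast MEF libraries, and the log2 fold change was 1.74 ± 0.26 (adjusted p = 0.000527). With all 24 libraries in 1 fit, which shares the spread of the GMP libraries, Pkp3 and Jup missed the threshold, with adjusted p of 0.0612 and 0.0684.

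Slow cycling MEF, which had seen the factors for the same 6 days, differed from bulk MEF in 1 desmosome gene of the 4 that could be tested, of which Pkp1, Dsp and Perp passed the filter through slow MEF alone, against 10.5% of 11253 genes called and 5.51% called as higher. Pkp1 rose, with 6.63 to 30.1 CPM in slow MEF and 0.113 to 1.72 CPM in bulk MEF, by 4.52 ± 1.01 on the log2 scale (adjusted p = 0.0169). The libraries did not overlap, nor did they for 18.7% of all genes tested. The call was lost without slow MEF replicate 3 (3.77, adjusted p = 0.0582), and the value was 5.85 without bulk MEF replicate 3.

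Dsp averaged 14.4 ± 9.07 CPM in slow MEF and 1.95 ± 3.57 CPM in bulk MEF (SD, n = 4 each), and its log2 fold change of 2.92 ± 1.32 did not pass (adjusted p = 0.183). Bulk MEF replicate 3 overlapped the slow libraries, and without it Dsp passed at 6.37 (adjusted p = 0.0128). Perp averaged 12.9 ± 17.2 CPM in slow MEF and 2.26 ± 3.07 CPM in bulk MEF, with overlapping libraries (2.55 ± 1.17, adjusted p = 0.192). Jup averaged 248 ± 213 CPM in slow MEF and 316 ± 86.9 CPM in bulk MEF (-0.31 ± 0.47, adjusted p = 0.714), and passed as lower without slow MEF replicate 4 (-1.11, adjusted p = 0.0488). The other 5 members were not tested for lack of counts. Dsc2 had 64 counts in slow MEF and 0 in bulk MEF, at least 21.3-fold higher, and Dsg2 had 40 counts against 1, a ratio of 39.9 with an interval of 6.76 to 1613. Both cadherins were higher in each slow MEF library than in any bulk MEF library. Dsg3 had 23 counts against 2, and Pkp3 had 185 against 9, of which 181 came from slow MEF replicate 1.

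Established iPS cells held another selection of desmosome RNA. Against bulk MEF, 3 of the 4 testable members rose, Dsg2, Dsp and Perp, while 47.4% of 11736 genes were called and 24.1% were called as higher. All 3 passed the filter through iPS alone. Libraries of iPS and bulk MEF did not overlap for 47.2% of all genes tested. Dsg2 had 27.3, 42.8, 72.7 and 75.2 CPM in iPS, against a single count in bulk MEF, a ratio of 2404 with an interval of 431 to 94992. The log2 fold change was 10.55 ± 0.83 (adjusted p = 1.4e-05), and 12.30 without bulk MEF replicate 3, which held that count.

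Perp had 28.2, 16.6, 22.3 and 21.9 CPM in iPS, all above bulk MEF, and a log2 fold change of 3.28 ± 0.85 (adjusted p = 0.00961), or 4.93 without bulk MEF replicate 1. Dsp had 15.5, 17.4, 92.0 and 20.8 CPM in iPS, above the 0 to 7.30 CPM of bulk MEF, and a log2 fold change of 4.17 ± 1.38 (adjusted p = 0.03). The Dsp call rested on single libraries: it was lost without iPS replicate 3 (3.13, adjusted p = 0.097), without bulk MEF replicate 2 (3.81, adjusted p = 0.0638) and without bulk MEF replicate 4 (3.77, adjusted p = 0.0583), and was 7.70 without bulk MEF replicate 3. Jup had 658, 236, 346 and 355 CPM in iPS, overlapping the 206 to 392 CPM of bulk MEF (0.33 ± 0.34, adjusted p = 0.453).

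The other 5 members had too few counts for the test of iPS against bulk MEF. Pkp3 had 0.305, 6.63, 9.12 and 40.0 CPM in iPS, from 764 counts, against 9 counts in bulk MEF, and the lowest iPS library lay within the bulk range. Dsc2 had 35 counts in iPS and 0 in bulk MEF, at least 9.06-fold higher. Pkp1 had 3 counts in iPS against 24 in bulk MEF, Dsg3 had 3 against 2 and Dsc3 had 2 against 0.

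Set directly against fast MEF, iPS cells were lower in 6 desmosome genes and higher in 1, Dsg2. In this comparison 38.4% of 11882 genes were called, 18.8% as higher and 19.7% as lower in iPS. Libraries of iPS and fast MEF did not overlap for 39.9% of all genes tested. Dsc2, Dsg3, Pkp1 and Pkp3 passed the filter through fast MEF alone. Pkp1 showed the largest difference, with 0, 0.175, 0 and 0.0802 CPM in iPS and 438 to 545 CPM in fast MEF, a log2 fold change of -12.71 ± 0.55 (adjusted p = 1.51e-06). Dsg3 had 0, 0, 0.0488 and 0.160 CPM in iPS and 20.3 to 29.8 CPM in fast MEF (-8.51 ± 0.76, adjusted p = 3.87e-05). Both were next to absent in iPS, on 3 counts each, so the fitted values move with single libraries: Pkp1 was -13.67 without iPS replicate 2 and -12.09 without iPS replicate 3, and Dsg3 was -9.47 without iPS replicate 4.

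Dsc2 had 0.610, 0.524, 0.585 and 1.04 CPM in iPS and 32.5 to 77.4 CPM in fast MEF (-6.38 ± 0.44, adjusted p = 8.9e-06). Dsp averaged 36.4 ± 37.1 CPM in iPS and 508 ± 39.9 CPM in fast MEF (-3.80 ± 0.59, adjusted p = 0.000866), and its value was -4.83 without iPS replicate 3. For Perp the averages were 22.2 ± 4.75 CPM in iPS and 189 ± 33.1 CPM in fast MEF (-3.09 ± 0.25, adjusted p = 2.06e-05). In these 3 genes no iPS library reached the fast MEF range. Jup averaged 399 ± 181 CPM in iPS and 1096 ± 227 CPM in fast MEF (-1.47 ± 0.30, adjusted p = 0.0035), also without overlap, and lost the call with all 24 libraries in 1 fit (adjusted p = 0.137).

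Dsg2 went the other way, at 27.3 to 75.2 CPM in iPS and 9.72 to 32.0 CPM in fast MEF, with 1 iPS library inside the fast range. Its log2 fold change of 1.42 ± 0.43 passed narrowly (adjusted p = 0.0262). The call was lost without iPS replicate 3 (1.25, adjusted p = 0.0685), without iPS replicate 4 (1.22, adjusted p = 0.0713), without fast MEF replicate 1 (1.38, adjusted p = 0.0633), without fast MEF replicate 2 (1.42, adjusted p = 0.0652) and with all 24 libraries in 1 fit (1.41, adjusted p = 0.399). Pkp3 overlapped widely (0.52 ± 1.06, adjusted p = 0.726), and its sign turned without iPS replicate 4 (-0.86).

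The choice between related members can be read within each library as a share of reads, given here as a description. Of the counts of Dsg2 and Dsg3 together, Dsg3 made up 0, 0, 0.067 and 0.213% in iPS, 60.7, 58.7, 67.6 and 39.4% in fast MEF, and 23.1, 23.8, 85.7 and 0% in slow MEF, where a library had 2 to 26 such counts. Of the counts of Pkp1 and Pkp3 together, Pkp1 made up 0, 2.56, 0 and 0.2% in iPS, 99.4, 98.3, 99.0 and 95.0% in fast MEF, and 25.5, 98.9, 99.6 and 97.3% in slow MEF. The share in iPS replicate 1 rests on 2 Pkp3 reads. Fast MEF libraries therefore held both desmogleins and mostly Pkp1, and iPS libraries held Dsg2 and, outside replicate 1, Pkp3, with hardly any Dsg3 or Pkp1.

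The desmosomal cadherins lie side by side on mouse chromosome 18. In the GRCm38 annotation the 9 genes of the cluster run Dsc3, Dsc2, Dsc1, Dsg1c, Dsg1a, Dsg1b, Dsg4, Dsg3 and Dsg2, with Cdh2, the N-cadherin of mesenchymal cells, next to Dsc3 and Ttr next to Dsg2. The other members are scattered, Dsp on chromosome 13, Pkp1 on 1, Pkp3 on 7, Jup on 11 and Perp on 10. Within the cluster, fast MEF levels of some neighbours were unlike: Dsc3 averaged 0.779 ± 0.420 CPM beside Dsc2 at 58.7 ± 18.9 CPM, and Dsc1 averaged 0.111 CPM. Dsg1a averaged 25.9 ± 5.00 CPM and Dsg1b 11.8 ± 1.90 CPM in fast MEF, near the level of Dsg3 at 25.2 ± 5.29 CPM. Both Dsg1 genes had no count in iPS or bulk MEF, and since they are close copies the split of reads between them is uncertain. In iPS, Dsg2 at the end of the cluster was the one cadherin of the 9 with an average above 1 CPM. Cdh2, outside the cluster, ran the other way, at 4.69 ± 2.03 CPM in iPS, 20.9 ± 2.61 CPM in fast MEF, 70.4 ± 13.6 CPM in slow MEF and 112 ± 16.6 CPM in bulk MEF.

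**Figure D3:**
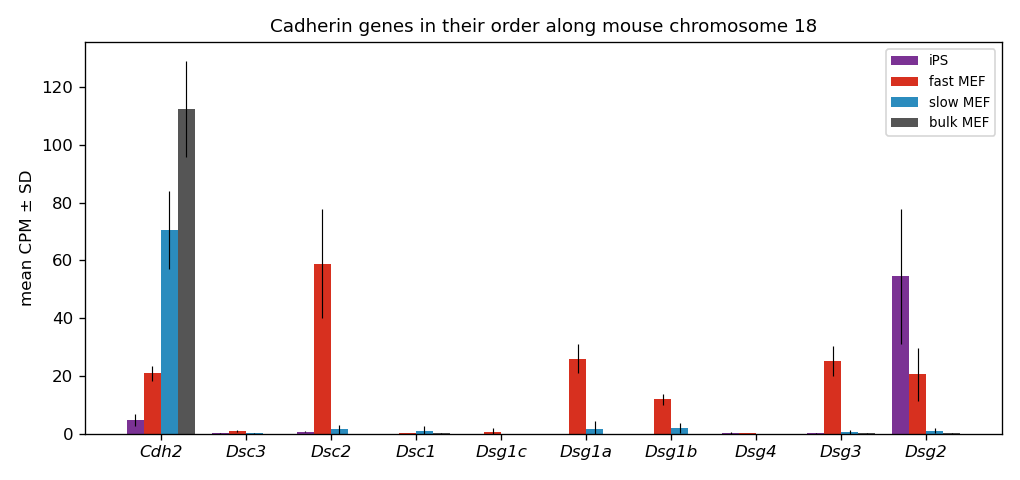
Bars are mean CPM with SD (n = 4 each) of Cdh2 and the 9 desmosomal cadherin genes in their order along mouse chromosome 18, in iPS, fast MEF, slow MEF and bulk MEF. Fast MEF shows Dsc2, Dsg1a, Dsg1b, Dsg3 and Dsg2, with gaps at Dsc1, Dsg1c and Dsg4, iPS shows Dsg2 at 54.5 CPM, and Cdh2 is highest in bulk MEF at 112 CPM.

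In blood progenitors the desmosome genes were low and uneven. None of the 4 testable members was called between fast and slow GMP, where edgeR called 0% of 10057 genes. At an unadjusted p below 0.05 in edgeR's test, 742 of the 10057 genes and 3 of the 4 members (Pkp1, Pkp3 and Jup) passed. Pkp1 and Pkp3 passed the filter on low counts through fast GMP alone, so their direction was largely set by the filter. The count of members is a description. DESeq2 called 97 genes and 0 members. Jup had 9.87, 4.57, 8.12, 1.25 and 5.73 CPM in fast GMP, against 125, 16.7 and 10.1 CPM in slow GMP, a log2 fold change of -3.08 ± 1.12 (adjusted p = 0.662). The libraries did not overlap, nor did they for 3.5% of all genes tested. With all 24 libraries in 1 fit Jup passed (-3.17, adjusted p = 0.0151).

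Pkp3 had 37.7, 6.47, 108, 2.09 and 0 CPM in fast GMP, against 0.361, 0 and 2.74 CPM in slow GMP (4.83 ± 2.11, adjusted p = 0.667), and Pkp1 had 9, 15.6, 0.677, 13.8 and 0 CPM, against 0, 0.927 and 0 CPM (4.40 ± 2.00, adjusted p = 0.667). Dsp had 7.55, 0.761, 0.677, 0.836 and 1.43 CPM in fast GMP, against 17.0, 0.618 and 2.74 CPM in slow GMP (-1.53 ± 1.42, adjusted p = 0.815). The high value of each gene sat in 1 or a few libraries. Fast GMP replicate 1, the library with counts in the most genes, held all 33 Dsc2 counts, both Dsc3 counts and all 5 Perp counts of fast GMP. Perp had no count in slow GMP, which allows up to 0.366 CPM over that group.

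Against bulk MEF, GMP as the mean of both gates were lower in 1 of 4 testable members, Jup, by -4.05 ± 0.74 on the log2 scale (adjusted p = 0.00174). In this comparison 21.3% of 12170 genes were called, 9.79% as lower. All 8 GMP libraries, at 1.25 to 125 CPM, lay below the 206 to 392 CPM of bulk MEF, and the value was -5.11 without slow GMP replicate 1. Pkp3 was not called (4.65 ± 1.77, adjusted p = 0.0727) but passed with DESeq2 (4.96, adjusted p = 0.00653) and without fast GMP replicate 5 (4.82, adjusted p = 0.0416).

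Whether the fast and slow gates differed by the same amount in MEF as in GMP was tested as an interaction, in which 1.4% of 13814 genes were called, 0.601% as higher and 0.796% as lower. Of the members, 2 passed, with 6.73 ± 1.33 for Dsp (adjusted p = 0.0169) and 5.21 ± 1.09 for Jup (adjusted p = 0.0236). Each value is the signed fast over slow log2 fold change in MEF less that in GMP. In the separate fits the signs were opposite. MEF had 5.02 for Dsp and 2.04 for Jup, and GMP had -1.53 and -3.08, neither of them called. Neither interaction passed without slow GMP replicate 1, the highest GMP library for both genes, at 4.68 for Dsp (adjusted p = 0.0832) and 3.34 for Jup (adjusted p = 0.0828). With the replicate number added to the fit as a block, neither passed. The value was 7.99 for Dsp without fast GMP replicate 1 and 5.99 for Jup without slow MEF replicate 4. Jup also missed the threshold without fast MEF replicate 1 or any of slow MEF replicates 1, 2 and 3 (4.98 to 5.08, adjusted p = 0.0516 to 0.0613). Dsg3 reached 9.60 ± 2.39 (adjusted p = 0.061), and passed without fast GMP replicate 1 (adjusted p = 0.0459), by DESeq2 (7.55, adjusted p = 0.0043) and with all 24 libraries in 1 fit (10.03, adjusted p = 0.0196).

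To compare levels between genes, CPM was divided by the length of each gene's longest coding transcript in GENCODE M21, which is not the annotation used for counting. Per kilobase, Jup led the MEF and iPS groups, at 124 ± 56.4 CPM per kb in iPS, 342 ± 70.9 in fast MEF, 77.4 ± 66.4 in slow MEF and 98.6 ± 27.1 in bulk MEF. Its share of the summed level of the 9 genes was 80.8% in iPS, 55.4% in fast MEF, 85.3% in slow MEF and 98.4% in bulk MEF. In fast MEF, Pkp1 followed at 102 ± 10.1 CPM per kb (16.5% of the sum), then Perp at 96.8 ± 16.9 (15.7%), Dsp at 53 ± 4.16 (8.58%) and Dsc2 at 12.7 ± 4.08 (2.05%). The remaining fast MEF members, Dsg3, Dsg2, Pkp3 and Dsc3, lay between 0.146 and 4.05 CPM per kb. In iPS, Perp at 11.4 ± 2.43 and Dsg2 at 9.45 ± 4.05 CPM per kb came after Jup. Bulk MEF RNA of the set was plakoglobin almost alone, with Perp next at 1.16% of the sum.

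**Figure D4:**
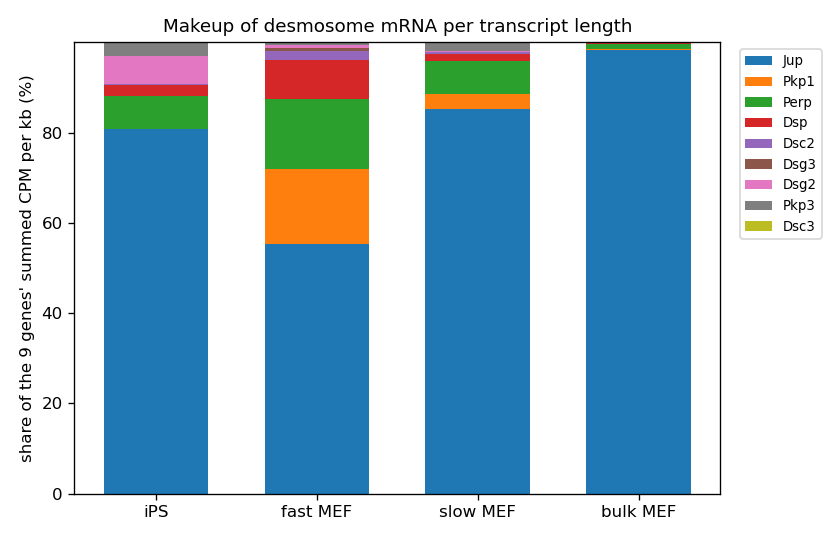
Stacked bars give each gene's share, in percent, of the summed CPM per kb of the 9 desmosome genes in iPS, fast MEF, slow MEF and bulk MEF. Jup fills 98.4% of the bulk MEF bar and 55.4% of the fast MEF bar, where Pkp1, Perp and Dsp take most of the rest.

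The order of the groups differed between members. Fast MEF had the highest mean for Dsp, Dsc2, Dsc3, Dsg3, Pkp1, Jup and Perp, and for these genes other than Dsc3 its libraries did not overlap those of the group next in order. Over all genes tested, 39.9% did not overlap between iPS and fast MEF, and 35.6% between fast and slow MEF. These shares are for fixed pairs of groups. The share of all genes whose highest group stood apart from the next was not computed, so the order of the members is a description. For Dsg2 iPS came first and overlapped fast MEF. For Pkp3 fast GMP came first, at 30.9 ± 45.9 CPM (n = 5), and overlapped the groups below it. Below fast MEF, Dsp ran in the order iPS, slow MEF, slow GMP, fast GMP and bulk MEF, with each group overlapping the next. The iPS libraries did not overlap those of bulk MEF.

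The wider desmosome machinery was followed as a separate list. Of 11 other desmosome genes, 8 could be tested between fast and slow MEF, of which 5 were higher and 1 was lower in fast MEF, with a median log2 fold change of 2.65, against -0.11 over all genes tested, of which 14.4% were higher and 17.3% lower. Which group carried list genes past the filter on low counts was not traced, and genes low in 1 group could pass through the other alone. The counts for this list and those below are therefore descriptions and not support for a direction. Envoplakin (Evpl), a plakin of the cornified envelope, had 180, 141, 194 and 169 CPM in fast MEF, against 0, 1.88, 11 and 0.0980 CPM in slow MEF (5.62 ± 1.23). Pkp4, a plakophilin relative of several junction types, averaged 155 ± 58.0 CPM in fast MEF and 20.1 ± 3.32 CPM in slow MEF (2.82 ± 0.33). Corneodesmosin (Cdsn), which modifies desmosomes of the cornified skin, was the one that fell, at 0.635, 0, 0 and 1.04 CPM in fast MEF, against 0.642, 11, 6.95 and 10.4 CPM in slow MEF (-4.14 ± 1.27). Pkp2, the plakophilin of the heart and simple epithelia, was present everywhere outside the blood cells, at 6.44 to 17.5 CPM in iPS, 21.9 to 28.4 CPM in fast MEF, 11.5 to 18.9 CPM in slow MEF and 19.1 to 41.4 CPM in bulk MEF. In iPS against fast MEF, 0 of the 8 tested genes of this list were higher and 4 were lower, against 18.8% higher and 19.7% lower over all genes, and against bulk MEF iPS were higher in 3 of 4 (Pkp4, Evpl and Kazn) and lower in Pkp2, where 24.1% of all genes were higher.

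Keratins, the filaments that desmoplakin anchors, were followed as a list of 11, of which 8 were tested between fast and slow MEF. All 8 were higher in fast MEF, against 14.4% of all genes tested, with a median log2 fold change of 5.14. Krt14, the basal epidermal type I keratin, had 10437, 6466, 11692 and 10778 CPM in fast MEF, against 33.5, 186, 136 and 560 CPM in slow MEF (5.33 ± 0.74). Krt6a, an injury keratin, and Krt19 rose by 4.95 ± 0.51 and 6.68 ± 0.72. In slow against bulk MEF, 5 of 8 tested keratins rose, against 5.51% of all genes, those with the smallest p being Krt6a (6.46 ± 0.78), Krt16 (7.53 ± 1.03) and Krt14 (6.35 ± 0.92), beside 1 of 4 testable desmosome members. In iPS against fast MEF, 7 of 8 keratins were lower and 0 higher, against 19.7% lower over all genes, with Krt6a at -11.86 ± 0.37. Keratin genes share sequence, and reads could be split among copies.

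Markers of keratinocytes, the epidermal cells rich in desmosomes, moved with these genes, and their part in the result was not tested. Their summed level was 376 to 793 CPM in iPS, 10098 to 16282 CPM in fast MEF, 54.3 to 640 CPM in slow MEF and 83.8 to 120 CPM in bulk MEF. Of the 10 markers, 6 were tested between fast and slow MEF and 5 were higher, against 14.4% of all genes tested. Among the 5 were Itga6 (5.47 ± 0.53) and Sfn (5.69 ± 0.63). The list was uneven: 5 markers averaged 10 CPM or more in fast MEF and 3 averaged under 1 CPM. These 3 were Krt5, the partner of Krt14 in basal keratinocytes, at 0.817, 0.352, 1.04 and 0.160 CPM, Krt15 at 0.726, 0.441, 0.347 and 0.959 CPM, and Trp63, the basal epidermal regulator p63, at 0, 0, 1.04 and 0 CPM. Among slow MEF, replicate 3, the highest slow library for Pkp1, Perp and Dsp, had 68.5 CPM of Krt15. The summed markers went otherwise, with 640 CPM in slow MEF replicate 4 against 349 CPM in replicate 3. Replicate 4 had only 3.53 CPM of Pkp1 and 1.76 CPM of Perp.

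**Figure D5:**
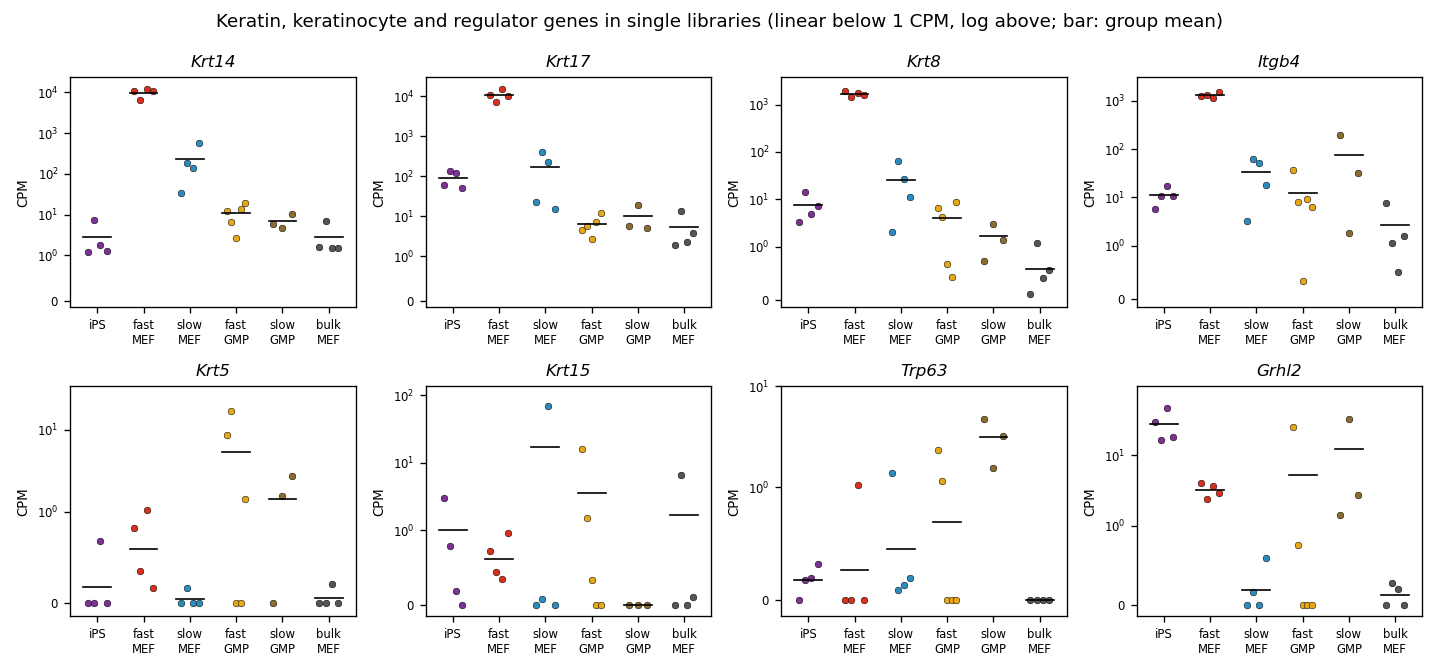
Points are single libraries and bars group means, in CPM on an axis that is linear below 1 CPM and logarithmic above, for Krt14, Krt17, Krt8, Itgb4, Krt5, Krt15, Trp63 and Grhl2. Fast MEF libraries are far above the rest for Krt14, Krt17, Krt8 and Itgb4 and at or below 1.04 CPM for Krt5, Krt15 and Trp63.

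Among regulators of epithelial identity, of 11 listed, 8 were tested in fast against slow MEF. Of these, 6 were higher and 0 lower (median log2 fold change 3.61), against 14.4% higher and 17.3% lower over all genes. Those with the smallest p were Klf4 (2.74 ± 0.43), one of the induced factors, and the splicing regulators Esrp2 (5.33 ± 0.85) and Esrp1 (6.17 ± 1.20). In iPS against fast MEF, where 18.8% of all genes were higher and 19.7% lower, the list went both ways, with 3 of 10 higher, among them Klf5 (5.32 ± 0.52) and Grhl3 (4.36 ± 0.58), and 4 lower, among them Esrp2 (-4.62 ± 0.41), Klf4 (-1.48 ± 0.27) and Ovol1 (-4.02 ± 0.76). Grhl2, a Grainyhead-like activator of junction genes, had 29.7, 16.5, 46.9 and 17.7 CPM in iPS and 4.08, 2.38, 3.65 and 2.88 CPM in fast MEF. All 7 tested mesenchymal regulators fell in fast against slow MEF, against 17.3% of all genes. The smallest p among them were those of Prrx1 (-2.83 ± 0.25), Zeb2 (-3.44 ± 0.43) and Twist2 (-3.31 ± 0.41). The adherens junction list of 10 was mixed, with 5 higher, among them E-cadherin Cdh1 (6.06 ± 0.87), and 2 lower, Cdh3 (-3.86 ± 0.42) and Cdh2 (-1.87 ± 0.30). The shares over all genes were again 14.4% higher and 17.3% lower.

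Perp is itself a p53 target, and a list of other targets was counted beside it. The list does not hold every p53 target, and the part of p53 in the Perp result was not tested. Of 15 p53 target genes on a list without Perp, 0 rose and 11 fell in fast against slow MEF, where 14.4% of all genes were higher and 17.3% lower. The list had a median log2 fold change of -1.35 and the smallest p in Trp53inp1 (-2.71 ± 0.47), Fas (-4.64 ± 0.88) and Zmat3 (-1.26 ± 0.24), while Perp rose by 3.74. In fast against bulk MEF, 0 of 14 rose and 8 fell, against 18.4% of all genes lower, while Perp rose by 6.32. In iPS against fast MEF, 6 of 14 rose, against 18.8% of all genes, and 1 fell, Cdkn1a (-3.38 ± 0.20), the cell cycle inhibitor p21, and Perp fell by 3.09.

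The genes whose log2 CPM was most like that of a member over the 24 libraries, ranked by Pearson's r among 11560 genes, are given as a description, since the libraries share groups and depth. For Dsp these were Tulp1 (r = 0.897), Fetub (0.897), Cyp2s1 (0.896), Dpysl5 (0.895) and Lad1 (0.885). Lad1, ladinin, averaged 18.2 CPM in iPS, 289 CPM in fast MEF, 4.48 CPM in slow MEF and 0.462 CPM in bulk MEF. For Jup they were Epn2 (0.957), Kctd15 (0.944), Wasf1 (0.934), Nckap1 (0.928) and Tubb3 (0.916), and for Perp they were Zbtb7c (0.920), Stmn2 (0.912), Phlda2 (0.904), Sfn (0.895) and Shroom2 (0.895). No gene was among the 5 nearest of more than 1 of these members.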

How the data were processed

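Per the labels' protocols, cells were sorted and lysed, cytosolic mRNA was primed with oligo-dT for reverse transcription, and the cDNA was amplified. The deposited values are raw counts of reads for each gene symbol, whole numbers with no normalization. CASAVA 1.8.2, TopHat2 2.0.4, HTSeq and build mm9 were used, per the submitters' processing notes, while annotation and strand use are not stated there, so reads of overlapping or antisense genes cannot be told apart. Library totals ran from 2098846 to 18648132 counts. Intervals and floors (3 counts over a group) cover counting error only. All 37 library pairs of a shared group differed, with a chi-square per degree of freedom of 40.3 or more.

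Groups were compared with edgeR 4.0.16 in R 4.3.3 (quasi-likelihood F test, robust, TMM factors, filterByExpr, two-sided), with only the groups compared in a fit, Benjamini-Hochberg adjustment over all genes tested and a threshold of 0.05. The script was tested on simulated data. Alternatives included DESeq2 1.42.0. CPM used TMM factors over all 24 libraries, and figures were drawn with matplotlib 3.10.9. All 9 desmosome genes were named. Of each of 13 other gene lists, the rule took the called genes of smallest p, at most 3 in the direction with more calls and at most 2 in the opposite one, plus list genes set beside a desmosome result. The members and lists were chosen with earlier results of these data known. Of 116 listed genes, 113 matched by symbol and 3 by synonym. No coordinates on mm9 were used here.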

Additional observations from a re-analysis of the deposited data

Results flagged for a closer look

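In 16 of 42 sets of values (1 member in 1 group of 4 or 5 libraries) a single library stood apart by Dixon's criterion, always as the highest. The criterion flags about 1 in 20 sets by chance only where values are normally distributed. CPM values cannot fall below 0, and a group of zeros with 1 count is flagged as well. The 16 flags are therefore a description and cannot be read as an excess over chance. Fast GMP replicate 1 stood apart for Dsc2 at 9.58 CPM, Dsc3 at 0.580 CPM, Dsp at 7.55 CPM and Perp at 1.45 CPM, and this was the GMP library with counts in 18402 genes. Bulk MEF replicate 3 stood apart for Dsp at 7.30 CPM, Pkp1 at 1.72 CPM and Dsg2 at 0.101 CPM, and bulk MEF replicate 1 for Perp at 6.86 CPM and Dsg3 at 0.196 CPM. Among slow MEF the high libraries were replicate 1 for Pkp3 at 19.4 CPM, replicate 2 for Dsc2 at 3.92 CPM, replicate 3 for Dsc3 at 0.253 CPM and replicate 4 for Jup at 565 CPM. Among iPS they were replicate 3 for Dsp at 92.0 CPM and Dsc3 at 0.0976 CPM, and replicate 4 for Dsc2 at 1.04 CPM.

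The signed fast over slow log2 fold change in MEF exceeded that in GMP by 6.73 for Dsp and 5.21 for Jup, by edgeR's test of the difference. In MEF it was 5.02 for Dsp and 2.04 for Jup, and in GMP it was -1.53 and -3.08, neither of them called. Both interactions lost the call without slow GMP replicate 1. Both calls were also lost with the replicate block.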

How the results depend on the processing

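Of 783 log2 fold changes of desmosome genes under alternative settings, 740 kept their direction and side of the threshold, 20 lost the call, 10 gained it and 13 changed sign. For fast against slow and against bulk MEF, 7 to 8 and 8 members were called with any library left out. All genes called then numbered 3055 to 3863 and 3244 to 3941. Members called in slow against bulk MEF numbered 0 of 2 with a stricter filter (5 CPM), where 1059 of 8819 genes were called. They numbered 2 of 4 with the replicate block, where 870 of 11253 genes were called, and 0 to 2 with a library left out. In iPS against bulk MEF 5 of 9 were called with no filter, where 5961 of 18298 genes were called. In fast against slow GMP 1 of 4 was called with all 24 libraries in 1 fit, where 579 of 10057 genes were called. In GMP against bulk MEF 2 of 4 were called by DESeq2, where 3628 of 12170 genes were called, and 1 to 2 with a library left out. In the interaction 0 of 8 were called with the replicate block, where 92 of 13814 genes were called, and 0 to 3 with a library left out. With the block edgeR gave 6.24 for Dsp (adjusted p = 0.0586) and 4.79 for Jup (adjusted p = 0.0858). Mean levels in fast MEF were 458 CPM (Dsp) and 429 CPM (Pkp1) with RLE size factors, and 592 and 554 CPM without Rn45s and Lars2.

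Values that changed sign were Pkp3 in iPS against fast MEF with the replicate block (-0.20) and Perp in the interaction by DESeq2 (1.24). With a library left out, ranges that crossed 0 were -0.056 to 0.53 for Jup in iPS against bulk MEF, -0.86 to 1.34 for Pkp3 in iPS against fast MEF, -2.09 to 0.45 for Dsp between GMP gates, and -0.060 to 4.52 for Dsp and -0.57 to 2.82 for Pkp1 in GMP against bulk MEF. In the interaction these were -1.23 to 8.18 for Dsc2, -1.81 to 3.16 for Dsg2, -3.68 to 1.31 for Pkp1, -6.36 to 1.04 for Pkp3 and -0.77 to 3.74 for Perp. The cause was not tested.

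Over all genes, deviations of same-numbered libraries were hardly correlated (r from -0.061 to 0.079). With so few libraries per group this cannot exclude a shared batch or culture, and the labels do not say what a number shares. With the block, fitted values moved for Dsp to 9.59 and Perp to 7.08 in fast against bulk MEF, and Dsp passed in slow against bulk MEF (4.81, adjusted p = 0.0344). A library correlated best with its own number in 1 to 3 pairs per comparison. Over all genes, 1 fit to the 24 libraries called 1410 genes in fast against slow MEF (3726 in the separate fit), 1636 (3958) in fast against bulk, 88 (1181) in slow against bulk, 3101 (5566) in iPS against bulk, 1811 (4568) in iPS against fast, 579 (0) between GMP gates, 4290 (2594) in GMP against bulk and 1125 (193) in the interaction. DESeq2 called 1977 in slow against bulk MEF and 1548 in the interaction, and the block called 92 there. With a library left out these counts were 759 to 998 in slow against bulk MEF, 1450 to 2822 in GMP against bulk MEF and 82 to 575 in the interaction. RLE factors shifted the median log2 fold change by 0.105 in GMP against bulk MEF and by -0.149 in the interaction. Counts were few for Dsc3, and in the GMP libraries for all cadherins and Perp. Whether this came from depth or from low expression was not tested.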
